A study of Mus musculus with 8 samples.

Results

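Translation initiation factors are the proteins that bring the ribosome, the initiator tRNA and a capped mRNA together before protein synthesis begins. They were followed here in mouse whole embryos at 2 stages. All genes were taken whose probe sets carry a single platform symbol starting with Eif1 to Eif6, with the eIF2 kinases (Eif2ak) included and Eif1ad left out. This gave 46 genes with 131 probe sets, of 18193 genes with 34945 such probe sets in all, and each gene is described by its brightest probe set, the one with the highest mean log2(signal + 16). The 4 arrays of 8-cell embryos (E2.5, at 66 h post hCG, an injection that sets the time of ovulation) and the 4 arrays of blastocysts (E4.5, at 120 h) all came from wild-type B6D2F1 embryos. They had been collected as zygotes and cultured in KSOM, a medium for early embryos, under low oxygen. AP-2 gamma, tight junctions and formation of the cavity are named in the title of the series. With wild-type embryos at both stages, the comparison here is that of the stages.

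In the initiation pathway, eIF2 with GTP carries the initiator tRNA to the small ribosomal subunit, where eIF1, eIF1A, eIF3 and eIF5 assemble with it. eIF2B reloads eIF2 with GTP, and kinases that phosphorylate eIF2 block that step under stress. The mRNA is recruited by eIF4F, made of the cap binder eIF4E, the scaffold eIF4G and the helicase eIF4A, and 4E-binding proteins keep eIF4E away from eIF4G. eIF5B joins the large subunit, from which eIF6 must first be released. The early embryo is known to replace mRNA stored in the egg with its own transcripts, and its protein synthesis rises before the blastocyst stage.

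The arrays gave signals on a linear scale that had been scaled per array, so a rise or fall is relative to the other signals of that array and is not an amount per embryo. Fewer cells of a type and less RNA per cell cannot be told apart in whole embryos. Array medians lay between 47.1 and 56 signal units. The correlation over the 13274 tested genes was 0.977 to 0.988 within a stage and 0.752 to 0.780 between stages. Marker genes were summed per array. The sum of 6 trophectoderm genes was 2997 to 3489 on 8-cell arrays and 73369 to 82518 on blastocyst arrays, and that of 8 oocyte and early embryo genes was 34320 to 42085 and 484 to 778. The lineage markers of the inner cells were mixed: of 6 primitive endoderm genes 4 were higher and 2 lower (sums of 6946 to 10359 and 13484 to 15980), and of 6 epiblast genes 3 were higher and 3 lower (sums of 14131 to 16763 and 9042 to 12055). Blood and fibroblast or vessel markers had low summed signals at both stages, of 161 to 404 and 197 to 298. Single genes did change: of 2 tested blood markers 1 was higher, and of 4 tested fibroblast or vessel markers 2 were higher and 1 lower. The 7 cumulus and granulosa cell markers on the array summed to 6591 to 10305 and 487 to 578. Amhr2, at 8118 ± 1598 and 282 ± 36.8, made up most of the 8-cell sum, while Amh was above the 40th percentile of its array on 0 of 8 arrays. Of the 4 tested genes of this list 2 were lower, Amhr2 and Foxl2 (174 ± 34.8 and 121 ± 25.8), and 2 did not pass. The log2 difference between 3' and 5' control probe sets, larger where labelled RNA is short of its 5' end, was higher in 8-cell embryos, at 2.42 ± 0.19 against 0.82 ± 0.11 for Actb and at 2.32 ± 0.26 against 1.36 ± 0.11 for Gapdh (SD, n = 4). Both differences reached p = 0.0286 (two-sided exact permutation, adjusted p = 0.0286 over both), which is the lower limit for 4 against 4 arrays. The signals were deposited with 1 decimal for the 8-cell arrays and with more for nearly all blastocyst values, so the stage and any difference in how the arrays were handled cannot be told apart.

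Most initiation factor transcripts were lower in blastocysts. Of the 45 that could be tested, 26 fell, 6 rose and 13 did not pass (limma, adjusted p under 0.05 after Benjamini-Hochberg adjustment over all tested genes). The cap binders Eif4e3 and Eif4e, the elongation-linked Eif5a2 and the GTPase activator Eif5 fell most, and the stress kinase Eif2ak4 rose most. Among all tested genes 34.2% were lower and 37.5% higher, against 57.8% and 13.3% of the initiation factors. The shares called in either direction were close, 71.7% and 71.1%. The median difference, blastocyst minus 8-cell, was -0.40 log2 units for the initiation factors and 0.02 for all tested genes. The stages did not overlap in 34 of the 45 genes (75.6%), against 66.8% of all tested genes. Changes were mostly small: 9 genes (20.0%) were at least 2-fold lower and 1 (2.22%) at least 2-fold higher, against 20.4% and 25.4% of all tested genes. Of the 45 genes 44 were above the 40th percentile on all 8 arrays, so none entered the test through a single stage.

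**Figure D1:**
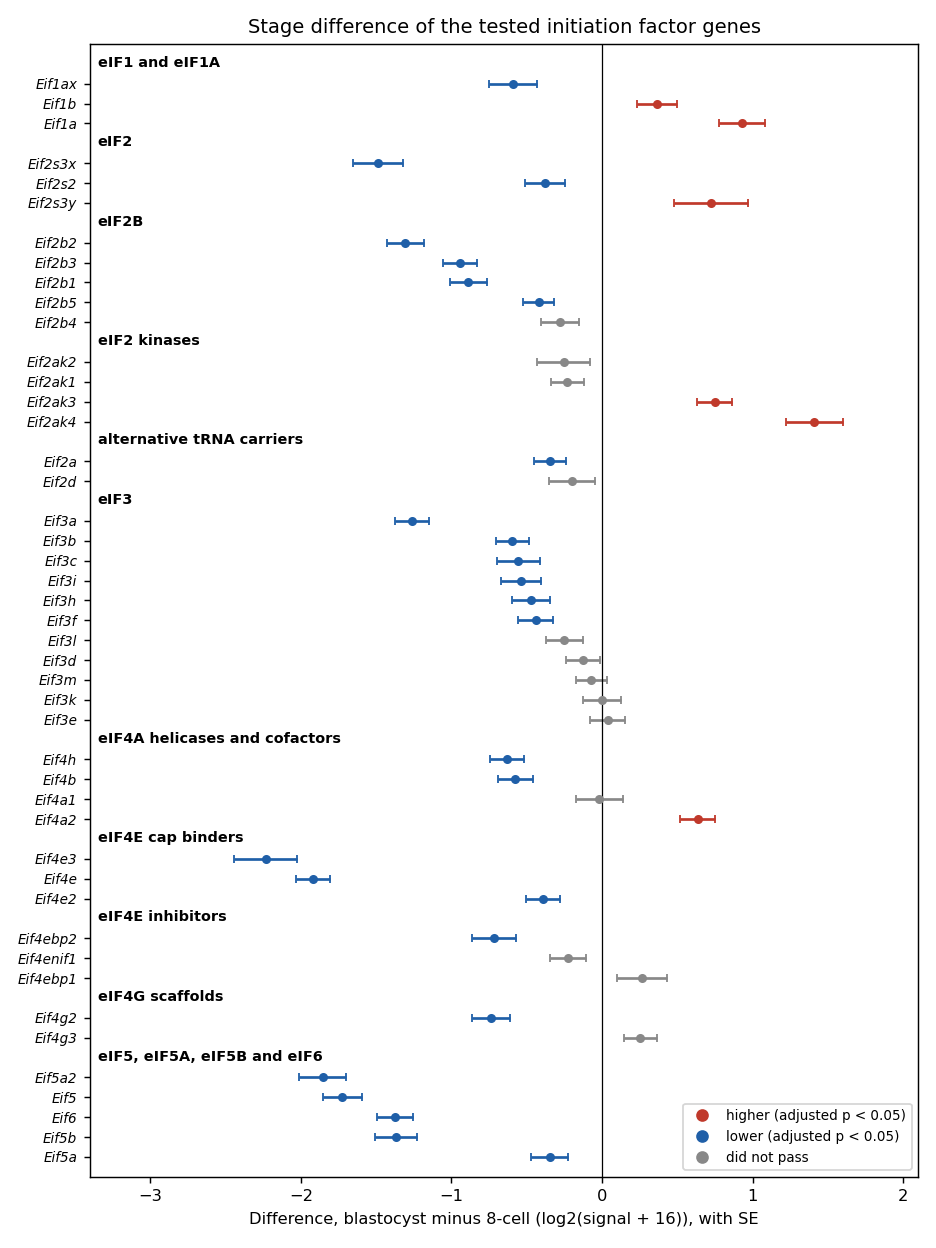
Difference between stages (horizontal axis, log2(signal + 16) of blastocysts minus that of 8-cell embryos, bars show the SE) for the 45 tested initiation factor genes, ordered by role, 4 arrays per stage. Points left of 0 prevail, with 26 genes lower (blue), 6 higher (red) and 13 that did not pass (grey); 10 are lower and 8 higher when the arrays are scaled to spike-ins.

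These counts depend on the array scaling. With arrays scaled to 18 hybridisation spike-in probe sets, the median difference of all tested genes moved from 0.02 to 0.37 and that of the initiation factors from -0.40 to -0.04. Then 10 initiation factors were lower and 8 higher, so that 44.4% of the called members were higher against 18.75% on the deposited scale, and 66.8% against 52.3% of all calls. This scaling moves every gene of an array alike, and 16 of the 32 called members were still called. Whether these spike-ins follow the amount of RNA per embryo was not tested. Quantile normalization gave 6 higher and 24 lower members, with medians of -0.27 for the initiation factors and -0.01 for all genes, which lie closer together than on the deposited scale. Median scaling gave 6 and 23. Of the members called on the deposited scale, Eif2a and Eif5a changed sign with spike-in scaling (0.0076 and 0.0064), and the others kept their direction under all 3 scalings. The 9 genes called lower in all alternative settings that gave a value for them were Eif2b2, Eif2b3, Eif3a, Eif4e, Eif4e3, Eif5, Eif5a2, Eif5b and Eif6, and the single gene called higher in all of them was Eif4a2.

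**Figure D2:**
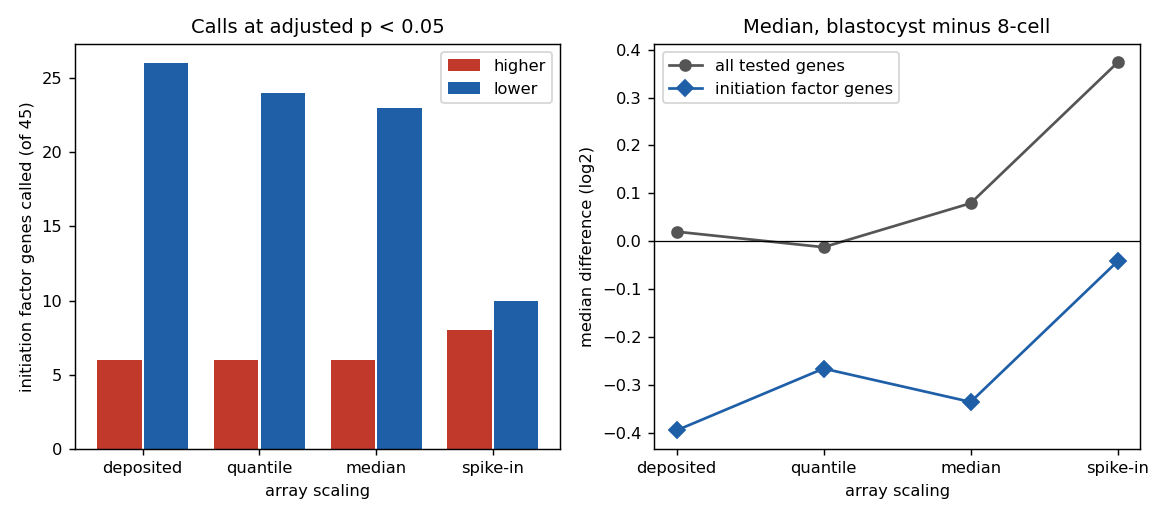
Left, number of initiation factor genes called higher (red) or lower (blue) in blastocysts under 4 scalings of the arrays. Right, median difference (log2, blastocyst minus 8-cell) of the 45 initiation factors (blue) and of all tested genes (grey): spike-in scaling lifts both, to -0.04 and 0.37.

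All 3 tested cap binder genes were lower, where 34.2% of all tested genes were, but Eif4e2 by far less than the others. Eif4e encodes the protein that grips the mRNA cap. Its signals were 15974, 15979, 18033 and 15509 on the 8-cell arrays and 4221, 4722, 4118 and 4209 on the blastocyst arrays. The stages were far apart, with a 3.78-fold fall (log2 difference -1.92, SE 0.11, adjusted p = 3.38e-07 by limma). All 4 tested probe sets of Eif4e were lower, by -0.81 to -3.75. Eif4e3, a relative of Eif4e that binds the cap in another way, went from 554, 461, 681 and 484 to 77.8, 112, 80.9 and 150. That is 4.70-fold lower (-2.23, SE 0.21, adjusted p = 7.72e-06 by limma), with its other probe set at -1.43. Eif4e2, a cap binder that does not bind eIF4G and acts in repression, had 7593, 7658, 8429 and 7042 against 6449, 5687, 5498 and 5707. Its stages did not overlap either, but the fall was small (-0.40, SE 0.11, adjusted p = 0.0106 by limma). With spike-in scaling it was -0.0417 (adjusted p = 0.875) and with the mean of its probe sets -0.23 (adjusted p = 0.0823). Of the 5 tested probe sets of Eif4e2, 2 were lower and 3 did not pass (0.13, -0.23 and 0.38).

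**Figure D3:**
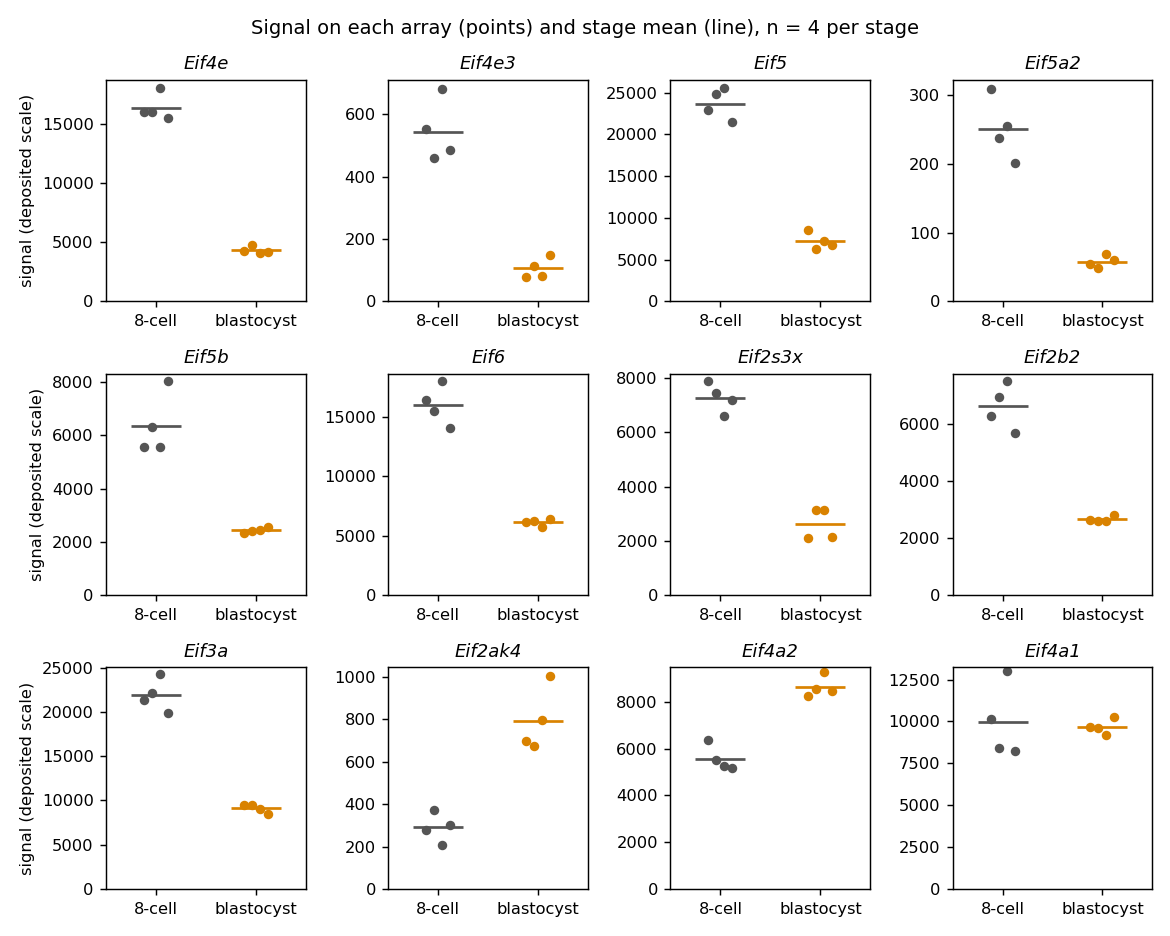
Signal on each of the 8 arrays (points, deposited linear scale) with the stage mean (line) for the 10 called initiation factors with at least a 2-fold difference and for the helicases Eif4a2 and Eif4a1. The stages are apart in each panel but that of Eif4a1, where the 8-cell arrays (8215 to 12989) enclose the blastocyst arrays.

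The proteins that hold eIF4E back did not move as a set. Eif4ebp1, a 4E-binding protein that mTOR kinase inactivates, had 10049, 8346, 9407 and 6456 in 8-cell embryos and 11788, 8913, 9345 and 10782 in blastocysts. These values overlap (0.26, SE 0.17, adjusted p = 0.182 by limma), but another bright probe set rose by 1.27 (adjusted p = 0.000245, limma over all probe sets) and a dim probe set gave -0.33 (adjusted p = 0.145). Eif4ebp1 was called higher with quantile normalization (0.48, adjusted p = 0.0192), with spike-in scaling (0.62, adjusted p = 0.0232) and with its probe sets averaged (0.40, adjusted p = 0.0478). Eif4ebp2, its close relative, had 3846, 4080, 3382 and 4973 against 2155, 2713, 2374 and 2569. It was lower (-0.72, SE 0.15, adjusted p = 0.00149 by limma), not so with spike-in scaling (-0.36, adjusted p = 0.249) or with its probe sets averaged (-0.11, adjusted p = 0.34). Of its other probe sets 1 was also lower (-1.13) and a dim pair was higher (1.18 and 0.58). Eif4enif1 encodes 4E-T, which carries eIF4E into the nucleus and to P-bodies, where mRNAs are stored. Its signals of 1749, 1461, 1915 and 1794 overlapped those of blastocysts, 1585, 1433, 1406 and 1461 (-0.23, SE 0.12, adjusted p = 0.121 by limma). It was called lower with quantile normalization (-0.32, adjusted p = 0.0329) and without replicate 2 of the 8-cell embryos (-0.30, adjusted p = 0.0454), and was 0.13 with spike-in scaling.

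The scaffolds differed between probe sets. Eif4g2 encodes DAP5, which supports initiation without eIF4E. Its brightest probe set gave 24929, 26064, 28544 and 21805 in 8-cell embryos and 15906, 16329, 14634 and 13754 in blastocysts, a 1.67-fold fall (-0.74, SE 0.13, adjusted p = 0.000473 by limma). A further bright probe set was lower too (-0.93), but a dimmer one rose by 1.63 (adjusted p = 1.33e-06, limma over all probe sets), from a mean of 1094 to 3427. The mean over its probe sets gave -0.0488, and spike-in scaling -0.38 (adjusted p = 0.121). Eif4g3, a scaffold of eIF4F, was at 1269 ± 92.7 and 1515 ± 82.9 (0.25, SE 0.11, adjusted p = 0.0629) with stages that did not overlap. It was called higher with spike-in scaling (0.61, adjusted p = 0.0298) and in 3 other settings (adjusted p = 0.0405 to 0.0481), and its dim probe sets gave 1.38 (higher), -0.45 (not passed) and -1.0 (lower).

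The helicase genes differed on their brightest probe sets. Eif4a1 and Eif4a2 encode near-identical helicases that unwind the start of the mRNA, so their probe sets may share signal. Eif4a2 rose from 6382, 5499, 5251 and 5160 to 8262, 8549, 9275 and 8480. All blastocyst arrays lay above all 8-cell arrays (0.64, SE 0.12, adjusted p = 0.00074 by limma). Eif4a1 was at 10156, 8438, 12989 and 8215 and at 9646, 9577, 9182 and 10252 (-0.02, SE 0.16, adjusted p = 0.926), positive under all 3 other scalings (0.04 to 0.34, none called), and its other probe sets were higher by 0.32 and 0.38. The helicase cofactors were lower. Eif4b went from 4156, 4524, 4378 and 3505 to 2687, 2799, 2842 and 2717 (-0.58, SE 0.12, adjusted p = 0.00158), and Eif4h from 21312, 23078, 25283 and 21971 to 15510, 14500, 13660 and 15400 (-0.63, SE 0.11, adjusted p = 0.00061, both limma). Neither passed with spike-in scaling (-0.22 and -0.28), and the probe sets of Eif4b spread from -1.86 to 0.99. Eif4a3, a helicase of the exon junction complex, is read here by a single probe set with means of 15.8 and 4.19, below the 40th percentile on all 8 arrays, and was not tested. A further probe set lists Eif4a3 together with another gene and was not used.

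All 5 genes of the late factors eIF5, eIF5B and eIF6 and of the eIF5A pair were lower, where 34.2% of all tested genes were. Eif5, whose product triggers GTP hydrolysis by eIF2, went from 22864, 24841, 25585 and 21487 to 8499, 6269, 7230 and 6759. This was a 3.30-fold fall (-1.72, SE 0.13, adjusted p = 1.91e-06 by limma), seen with all 5 probe sets (-0.77 to -1.83). Eif5b, the subunit-joining GTPase, went from 5576, 6316, 5551 and 8036 to 2320, 2415, 2441 and 2552. The blastocyst arrays were tightly grouped and far below (-1.37, SE 0.14, adjusted p = 1.58e-05), and a second tested probe set gave -3.15. Eif6, which keeps free large subunits from joining and is needed to make them, went from 16426, 15519, 18030 and 14090 to 6192, 6241, 5714 and 6432 (-1.38, SE 0.12, adjusted p = 4.24e-06 by limma). Eif5a, whose hypusine-bearing product helps ribosomes along difficult stretches of peptide, had 24213, 23190, 28444 and 21582 against 19660, 19590, 17622 and 19384. This gene was near the threshold (-0.35, SE 0.12, adjusted p = 0.0276) and passed in 11 of 19 other settings. It did not pass with quantile, median or spike-in scaling, nor did its other probe set pass (-0.09). Its relative Eif5a2 fell further, from 309, 237, 256 and 201 to 53.8, 47.8, 68.2 and 59.5 (-1.86, SE 0.15, adjusted p = 3.32e-06 by limma), though a dim probe set of it did not pass (-0.45, adjusted p = 0.0918).

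Among the genes of the eIF2 complex, Eif2s2 (the beta subunit) and Eif2s3x (the X-linked gamma subunit) were lower, and the Y-linked gamma subunit gene Eif2s3y was higher. The labels give no sex of the embryos. Eif2s3x had 7877, 7444, 6603 and 7180 in 8-cell embryos and 2104, 3147, 3124 and 2136 in blastocysts, which did not overlap (-1.49, SE 0.17, adjusted p = 2.89e-05 by limma). Its other probe sets went the other way, with 0.50 (adjusted p = 0.0114) and 0.34 (adjusted p = 0.0666, limma over all probe sets), and their mean with the brightest was -0.22 (adjusted p = 0.202). Eif2s3y had 370, 775, 722 and 712 against 1129, 783, 1056 and 1230. Its stages nearly touch (0.72, SE 0.24, adjusted p = 0.0231), and without replicate 1 or 4 of the blastocysts it did not pass (adjusted p = 0.0549 and 0.0606). Nor did it pass with quantile normalization (0.51, adjusted p = 0.088) or with its probe sets averaged (0.32, adjusted p = 0.0686). Eif2s2 was at 26876 ± 3631 and 20581 ± 1776 (-0.38, SE 0.13, adjusted p = 0.0282) and passed in 11 of 20 other settings; its 6 probe sets ran from -0.77 to 1.70.

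Of the 5 subunits of the exchange factor eIF2B 4 were lower, where 34.2% of all tested genes were. Eif2b2 (beta) went from 6305, 6981, 7544 and 5698 to 2635, 2590, 2596 and 2814. No 8-cell array came near the blastocyst arrays (-1.31, SE 0.12, adjusted p = 7.84e-06 by limma), and its other probe sets gave -1.22 and -1.77. Eif2b3 (gamma) was lower by -0.94 (SE 0.11), Eif2b1 (alpha) by -0.89 (SE 0.12) and the catalytic subunit gene Eif2b5 (epsilon) by -0.42 (SE 0.10). Eif2b4 (delta) had overlapping stages at 7489 ± 839 and 6142 ± 474 (-0.28, SE 0.13, adjusted p = 0.0679), and was positive with spike-in scaling (0.07). It was called lower in 3 settings (adjusted p = 0.0176 to 0.0495), among them without replicate 1 of the 8-cell embryos. With that scaling Eif2b1 (-0.54, adjusted p = 0.0569) and Eif2b5 (-0.07, adjusted p = 0.799) did not pass.

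Of the 4 eIF2 kinases 2 were higher on their brightest probe sets and 2 did not pass. Among all tested genes 37.5% were higher and 71.7% were called either way. Eif2ak4 encodes GCN2, which senses uncharged tRNA. It had 280, 371, 210 and 302 in 8-cell embryos and 700, 672, 797 and 1006 in blastocysts. All blastocyst arrays were above (1.41, SE 0.19, adjusted p = 0.000106 by limma), but a dim probe set of the gene fell (-0.62, adjusted p = 0.0299), and the average of both gave 0.39 (adjusted p = 0.0655). Eif2ak3 encodes PERK, the kinase of the endoplasmic reticulum stress response. It rose from 771, 812, 732 and 906 to 1436, 1373, 1415 and 1223 (0.75, SE 0.12, adjusted p = 0.000282), and a dim probe set of it, at a mean of 84.7 and 15.9, gave -1.68, with -0.91 for the average of its probe sets. Eif2ak1 encodes HRI, a kinase that responds to low heme. It had 904, 1025, 863 and 1020 against 808, 799, 820 and 799, lower on each blastocyst array but not past the threshold (-0.23, SE 0.11, adjusted p = 0.0815). It was called lower with quantile normalization (-0.44, adjusted p = 0.00309) and with its probe sets averaged (-0.68, adjusted p = 0.000288), and was 0.12 with spike-in scaling. Both other tested probe sets were lower (-0.54 and -1.51). Eif2ak2 encodes PKR, which binds double-stranded RNA. Its signals were close to the lower part of the array, 27.6, 46, 35.1 and 40.6 against 26.6, 29, 40.9 and 19.2, and overlapped (-0.26, SE 0.17, adjusted p = 0.212, and positive with spike-in scaling).

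Genes of proteins that can bring tRNA without eIF2 changed little on their brightest probe sets. Eif2a had 1541, 1786, 1664 and 1547 against 1351, 1316, 1230 and 1228 (-0.35, SE 0.11, adjusted p = 0.0164), which passed neither with median scaling (adjusted p = 0.0641) nor with spike-ins, where it was 0.0076. Eif2d had 5882, 4607, 5306 and 4329 against 4394, 5286, 4158 and 3680, which overlapped (-0.20, SE 0.15, adjusted p = 0.262), and was positive with spike-in scaling (0.15). Without probe sets ending in _x_at, _s_at or _a_at it was called lower (-0.68, adjusted p = 0.00315). Its other tested probe sets went both ways, at 0.81 (higher), 0.22 (not passed) and -0.68 (lower). The average of its probe sets was 0.16, which did not pass.

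The eIF1 group was mixed. Eif1a encodes eIF1A, which helps the ribosome scan for the start codon, and Eif1ax is its X-linked copy. Eif1a rose from 4036, 2775, 4025 and 3473 to 7449, 6706, 5828 and 7097 on its brightest probe set (0.93, SE 0.15, adjusted p = 0.000397 by limma). That probe set has an ID ending in _s_at, the form given to probe sets that can match several transcripts. The other probe set of Eif1a was lower (-0.70, adjusted p = 0.0018, limma over all probe sets), and the average of both gave 0.11 (adjusted p = 0.37). Eif1ax went from 6846, 4813, 5262 and 5140 to 3070, 4396, 3807 and 3329 (-0.59, SE 0.16, adjusted p = 0.00777), with the dimmer probe sets at -1.04 and -1.01, and did not pass with spike-in scaling (-0.24, adjusted p = 0.408). The copies are alike in sequence, so signal may be split between them. Eif1b, a relative of the start-codon selector eIF1, was at 1470 ± 191 and 1893 ± 166 (0.37, SE 0.13, adjusted p = 0.0316), and passed in 13 of 20 other settings.

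The scaffold complex eIF3, which binds the small subunit and recruits eIF4F, was lower in 6 of 11 tested subunits and higher in none (limma, with none higher at an unadjusted p under 0.05 either), where 34.2% of all tested genes were lower and 37.5% higher. Its largest subunit gene, Eif3a, went from 21336, 22126, 24261 and 19896 to 9468, 9501, 8980 and 8464 (-1.26, SE 0.11, adjusted p = 5.66e-06). Among the brightest probe sets of the subunits this was the largest fall. Eif3b was lower by -0.60 (SE 0.11), Eif3c by -0.56 (SE 0.14), Eif3i by -0.54 (SE 0.13), Eif3h by -0.47 (SE 0.13) and Eif3f by -0.44 (SE 0.12). With spike-in scaling Eif3a alone of these passed (-0.91), and the others were at -0.09 to -0.24. Eif3l (-0.25), Eif3d (-0.13), Eif3m (-0.07), Eif3k (-0.0012) and Eif3e (0.04) did not pass (adjusted p = 0.0941 to 0.994), and all 5 were positive with spike-in scaling. With quantile normalization 4 subunits were lower and 1 higher, since Eif3f (-0.14, adjusted p = 0.191) and Eif3h (-0.25, adjusted p = 0.0557) did not pass and Eif3e was called higher (0.31, adjusted p = 0.0169). With limma's trend and robust options Eif3l was called lower (adjusted p = 0.0246). Subunits with more than 1 tested probe set disagreed in size: Eif3a ranged from -0.24 to -2.79 and Eif3c from -0.56 to -1.98. The probe sets of Eif3i were at -0.54 and -1.20. With probe sets averaged, Eif3a was at -1.52, Eif3c at -1.07 and Eif3i at -0.87.

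Probe sets of a gene were compared in a fit over all 23724 tested probe sets, of which 68.9% were called. Of 115 tested initiation factor probe sets, 62 were lower, 17 higher and 36 did not pass. Among the 33 genes with at least 2 tested probe sets, 10 had all of them called the same way, and each of these 10 was lower: Eif1ax, Eif2b2, Eif2b5, Eif3c, Eif3i, Eif4e, Eif4e3, Eif5, Eif5b and Eif6. A further 10 had calls in both directions: Eif1a, Eif2ak3, Eif2ak4, Eif2d, Eif2s2, Eif2s3x, Eif4b, Eif4ebp2, Eif4g2 and Eif4g3. So each of the 3 genes called higher that had a second tested probe set (Eif1a, Eif2ak3 and Eif2ak4) also had a probe set called lower. The other higher genes, Eif1b, Eif4a2 and Eif2s3y, had 1 tested probe set each. The shares of all probe sets by direction, and of all genes with agreeing or opposed probe sets, are not given here. Whether these counts are particular to initiation factors was therefore not tested. The 8-cell arrays had the larger 3' minus 5' difference, as given above, and the place of each probe set along its transcript was not used here, so the part of that difference in these disagreements was not tested.

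**Figure D4:**
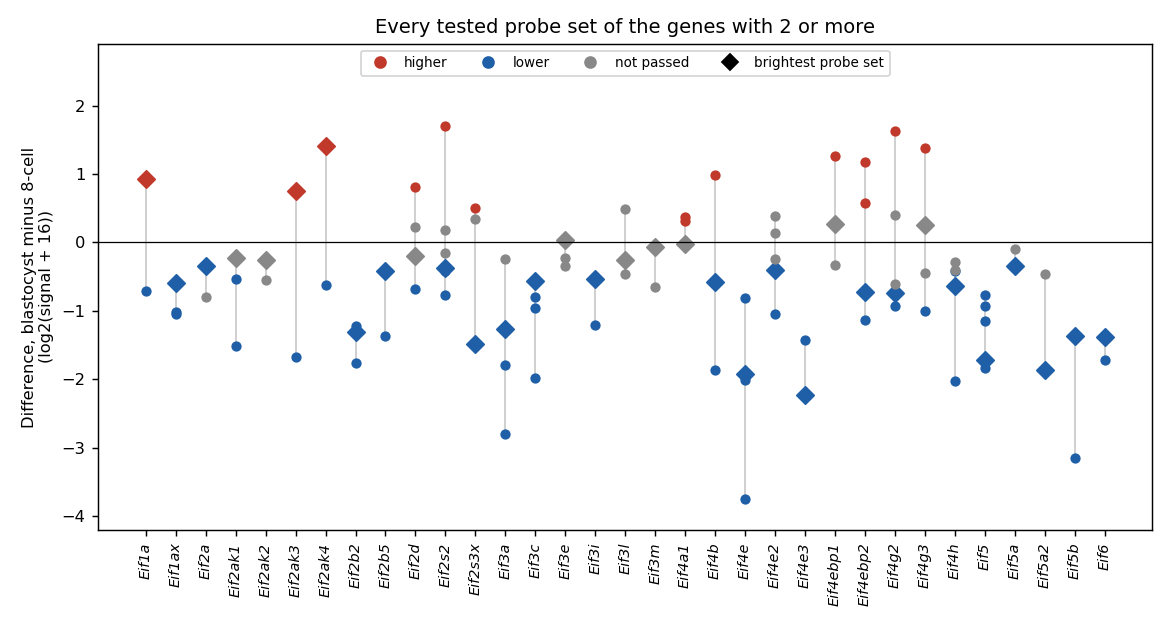
Difference between stages (vertical axis, log2(signal + 16), blastocyst minus 8-cell) of every tested probe set of the 33 genes with at least 2, coloured by call on the deposited scale, with the brightest as a diamond. Eif4e, Eif5 and Eif6 lie wholly below 0, while Eif2s2, Eif4b and Eif4g2 have probe sets called in both directions.

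Within an array, the ratio of related genes does not depend on how that array was scaled by a factor, apart from the added 16. It was compared for 10 pairs in an exact permutation test (two-sided, 70 assignments), with adjustment over the pairs. In 6 pairs the stages did not overlap, each at p = 0.0286, the smallest this exact test can give (adjusted p = 0.0476). Among single genes the stages did not overlap in 66.8% of all tested. The share over other gene pairs was not measured, so whether such separation is particular to related genes was not tested. Eif4e fell against Eif4e2, with a log2 ratio of 1.09 ± 0.03 in 8-cell embryos and -0.43 ± 0.14 in blastocysts (SD, n = 4 each). Eif1a rose against Eif1ax by 1.52, and Eif2s3x fell against Eif2s3y by 2.21, from 3.52 ± 0.56 to 1.30 ± 0.57. Eif5a rose against Eif5a2 by 1.51 and Eif4ebp1 against Eif4ebp2 by 0.98, and Eif4a1 fell against Eif4a2 by 0.65. The pairs Eif4e and Eif4e3 (0.31), Eif5 and Eif5b (-0.36), Eif2a and Eif2d (-0.14) and Eif4b and Eif4h (0.06) did not pass (exact permutation, adjusted p = 0.163 to 0.6). These ratios use the brightest probe sets. With the probe sets of each gene averaged, the rise of Eif1a against Eif1ax was smaller, at 0.99, and still passed. With the same averaging, the change in the ratio of Eif5 to Eif5b was 0.36, that of Eif2s3x to Eif2s3y -0.53 (adjusted p = 0.0952), and those of Eif2a to Eif2d (-0.73) and Eif4b to Eif4h (0.30) passed.

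**Figure D5:**
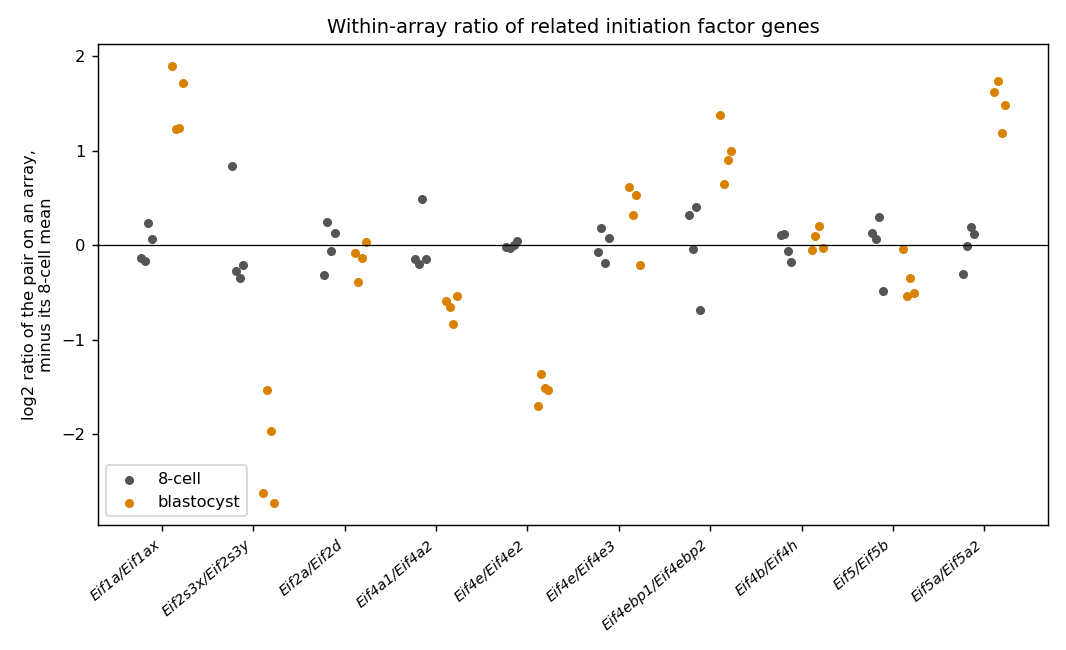
Log2 ratio of 10 gene pairs on each array, from brightest probe sets, shown relative to the 8-cell mean of the pair (vertical axis, log2 units; grey 8-cell, orange blastocyst). The stages separate for Eif1a/Eif1ax, Eif2s3x/Eif2s3y, Eif4a1/Eif4a2, Eif4e/Eif4e2, Eif4ebp1/Eif4ebp2 and Eif5a/Eif5a2.

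Promoter sequence was available for 37 of the 46 genes (RefSeq, GRCm38.p6). The E-box CACGTG, which reads the same on both strands and is bound by MYC and related factors, was searched in the 250 bases before the start, because several initiation factors are known as MYC targets. It was found in 6 of the 37 promoters (16.2%) and in 8.45% of those of the tested genes (6.04% of all promoters). The 6 genes were Eif1b, which rose, Eif3f, Eif4h and Eif5a2, which fell, and Eif3k and Eif4a1, which did not pass, so the match did not go with 1 direction. The ETS motif CCGGAAG, on either strand, was in 21.6% and 13.1%, and TGATGNAA, the form bound by ATF4, in 2.70% and 2.07%. The GC box GGGCGG was in 70.3% and 57.4%, and the CRE TGACGTCA in 0 of the 37 promoters and 2.56%, both strands searched. A match of letters is a description and not a bound site. The 60 bases around the E-box (in capitals) are shown 5′ to 3′ on the strand of the gene for a gene of each outcome, from chr9:120492546-120492605 (plus strand), chr5:134639473-134639532 (minus strand) and chr11:69672580-69672639 (minus strand).
Eif1b: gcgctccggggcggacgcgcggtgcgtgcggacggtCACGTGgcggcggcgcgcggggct
Eif4h: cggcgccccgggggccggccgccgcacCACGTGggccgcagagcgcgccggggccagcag
Eif4a1: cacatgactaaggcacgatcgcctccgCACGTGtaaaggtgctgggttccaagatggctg

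The wider pathway was described by lists of known members. The listed targets of the integrated stress response, the programme switched on when eIF2 is phosphorylated, mostly rose. Of 12 tested 9 rose, 2 fell and 1 did not pass (9 and 1 called with spike-in scaling, 7 and 2 with quantile normalization), against 37.5% of all tested genes higher and 34.2% lower. Atf3, 1 of the 9, was above the 40th percentile on 0 of 4 8-cell arrays and on 4 of 4 blastocyst arrays. It entered the test only through the stage where it is high, so its rise adds no support. It was named after its value was seen. Asns, encoding asparagine synthetase, rose from 836 ± 139 to 8779 ± 1623 (3.37, SE 0.18, adjusted p = 2.06e-07), Ddit3, encoding the factor CHOP, by 3.33 (SE 0.25) and Chac1, a glutathione-degrading enzyme, by 2.87 (SE 0.31). Atf4, the central factor of the programme, rose by 0.79 (SE 0.15, adjusted p = 0.000899), and was named after its value was seen. The 2 listed targets that fell, also named after their values were seen, were Ddit4 (-1.75, SE 0.30) and Sesn2 (-0.93, SE 0.22). Ppp1r15a, also tied to this programme, is counted among the regulators of initiation below and not here. It was lower too (-1.06, SE 0.18), and was named after its value was seen. Whether eIF2 was phosphorylated was not measured.

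Kinases and regulators of initiation were 6 higher, 12 lower and 7 not passing of 25 (7 higher and 8 lower with spike-in scaling), against 37.5% of all tested genes higher, 34.2% lower and 71.7% called either way. Pdcd4, an inhibitor of eIF4A, rose from 548 ± 91.6 to 7614 ± 1013 (3.76, SE 0.16, adjusted p = 6.29e-08), and Rragd, a GTPase that recruits mTOR to the lysosome, by 2.11 (SE 0.20). Larp4, which binds poly(A) and stabilises mRNA, fell from 22559 ± 1799 to 2268 ± 101 (-3.30, SE 0.11, adjusted p = 2.15e-08). Both kinases of eIF4E, Mknk1 (-1.14, SE 0.12) and Mknk2 (-1.29, SE 0.12), were lower, named after their values were seen.

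Poly(A)-binding proteins and their partners had 5 of 7 tested genes lower and 1 higher (2 and 2 with spike-in scaling), against 34.2% and 37.5% of all tested genes. Paip2, an inhibitor of the poly(A)-binding protein, fell by 1.61 on the log2 scale (SE 0.11) and Pabpc4, such a binding protein, by 1.56 (SE 0.11). Paip1, a stimulator of initiation, was higher by 1.02 (SE 0.19), but averaging its probe sets gave -0.36. Of 15 elongation factors and enzymes that modify them 4 were higher and 6 lower (4 and 3 with spike-in scaling), against 37.5% and 34.2% of all tested genes, and their share called was near that of all genes. Eef2k, the kinase that inhibits elongation factor eEF2, rose by 2.06 (SE 0.20), Dph5 by 1.55 (SE 0.17), and Dph2 was lower (-1.87, SE 0.18); the last pair make diphthamide, a modified residue of eEF2.

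Termination and recycling factors were 2 higher and 2 lower of 10 tested, against 71.7% of all genes called in either direction. Hbs1l, a factor of ribosome rescue, was higher by 1.77 (SE 0.16) but gave -0.014 once probe sets with IDs in _x_at, _s_at or _a_at were dropped. N6amt1 (-1.19, SE 0.16), a methyltransferase of release factors, and the release factor gene Etf1 (-0.45, SE 0.11) were lower. N6amt1 did not pass with its probe sets averaged (-0.25, adjusted p = 0.321), nor Etf1 with spike-in scaling (-0.10, adjusted p = 0.711). Regulators of stored oocyte mRNA were 4 higher and 8 lower of 16 (4 and 4 with spike-in scaling), against 37.5% and 34.2% of all tested genes, with a share called near that of all genes. Dazl, an RNA-binding protein of germ cells, was lower (-2.43, SE 0.29), while Patl2 (3.19, SE 0.20) and Lsm14a (1.54, SE 0.13, or 0.33 once such probe sets were dropped), of repressive RNA granules, were higher. Of 3 mitochondrial initiation genes, Mtfmt, which formylates the initiator tRNA, rose by 1.32 (SE 0.19) and Mtif2 by 0.65 (SE 0.13), and Mtif3 was at -0.15 (adjusted p = 0.358).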

How the data were processed

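Signals of 1-colour arrays were analysed for 8 samples. Per the labels' protocols, total RNA was isolated with a small-sample kit, amplified and biotin-labelled. The deposited values are intensity per probe set on a linear scale, from software not given in the sources used here. Each array has a mean of 500 once the top and bottom 2% are removed. Values became log2(signal + 16), on the deposited scale. Of 45101 probe sets, 64 controls were left out, 34945 had 1 gene symbol, 932 several and 9160 none. The brightest probe set stood for a gene. Genes whose signal passed the 40th percentile on at least 4 of 8 arrays were tested with limma (lmFit, eBayes, no covariates) and Benjamini-Hochberg adjustment at 0.05, 13274 in all. Folds understate the change of dim genes. The labels do not say whether arrays of a stage had separate embryo pools: p-values then measure only the spread between these samples, which can be technical. The number of arrays limits the precision.

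The members and lists were chosen with earlier results of these data known. The named genes follow a rule: every member has its difference, and signals on each array are given for called members with at least a 2-fold difference, for members of the compared pairs and for inhibitors, the scaffold Eif4g2, kinases and Eif6; from each wider list the 3 called genes with the largest difference are named. Other genes are said to be named after their values were seen. Listed genes Eif1, Eif2s1, Eif3g, Eif3j1, Eif3j2, Eif4e1b, Eif4ebp3 and Eif4g1 had no probe set with a single symbol and are not analysed here. Replicate numbers were checked for pairing. The same-numbered arrays of both stages deviated together at correlations of -0.02 to -0.04, so the numbers were not taken as pairs. Alternatives were quantile, median or spike-in scaling, other filters, averaging the probe sets of a gene, dropping those with IDs in _x_at, _s_at or _a_at, limma's trend and robust options, array weights, an added 1 or 64, a replicate block and leaving out each array. Those for the wider pathway, single probe sets and array quality were chosen after seeing the data. The limma step was tested on simulated data. R 4.3.3, limma 3.58.1, Python 3.11.15 and matplotlib 3.10.9 were used.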

Additional observations from a re-analysis of the deposited data

Results flagged for a closer look

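In 5 of 92 groups of 4 arrays (46 genes at 2 stages) an array stood apart from the other 3, by the gap to its neighbour as a share of the range of the log2 values, past Dixon's critical value; chance flags about 1 in 20 groups. Eif2s3y was at 370 on 8-cell array 1 and at 712 to 775 on the others (share 0.884). Eif2b5 was at 7208 on 8-cell array 3 against 6330 to 6466 (0.837), and Eif3l at 15429 on the same array against 12964 to 13334 (0.838). Eif3d was at 11208 on blastocyst array 3 against 13253 to 13358 (0.955), and Eif5a at 17622 on that array against 19384 to 19660 (0.871).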

How the results depend on the processing

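The counts of initiation factors called higher and lower moved by over 1.5 times with spike-in scaling, which gave 10 lower against 26, and with the mean of probe sets, which gave 3 higher against 6; that mean takes in dim probe sets. For all genes spike-in scaling gave 2806 lower against 4539. Leaving out each array gave 4 to 6 higher and 24 to 27 lower initiation factors, and 4 is without blastocyst replicate 1. It gave 4783 to 4880 higher and 4331 to 4507 lower genes in all. With the replicate block 5 initiation factors were higher and 24 lower, and 4862 and 4412 genes in all. The numbers do not pair the arrays, since 0 of 4 arrays of either stage correlated best with their own number. Called genes whose value crossed 0, and an uncalled gene called in the other direction (Eif4a1), were Eif2s2 (0.026), Eif2ak3 (-0.91) and Paip1 (-0.36) with the mean of probe sets, Eif2ak4 (-0.62), Eif4a1 (0.32) and Hbs1l (-0.014) without probe sets ending in _x_at, _s_at or _a_at, and Eif2a (0.0076) and Eif5a (0.0064) with spike-in scaling. Of the members that did not pass on the deposited scale, 10 (Eif4a1 among them) had another sign under some scaling and were not called there. Of the members 14 kept their side of the threshold and their direction wherever called in all settings that gave a value. Genes with opposite calls among their probe sets were 5 with spike-in scaling against 10, and genes with all probe sets called 1 way 4 against 10. Among the pairs, the mean of probe sets turned Eif5 to Eif5b (0.36), weakened Eif2s3x to Eif2s3y (-0.53) and brought Eif2a to Eif2d (-0.73) and Eif4b to Eif4h (0.30) past the threshold, and quantile normalization brought Eif4e to Eif4e3 (0.67). Without probe sets ending in _x_at, _s_at or _a_at 8 pairs had a value, and Eif1a to Eif1ax and Eif5a to Eif5a2 had none. Of the 8, Eif2s3x to Eif2s3y (-2.21), Eif4a1 to Eif4a2 (-0.32), Eif4e to Eif4e2 (-0.88) and Eif4ebp1 to Eif4ebp2 (1.98) no longer passed. For all but Eif4e to Eif4e2 the exact permutation p stayed at 0.0286, the smallest possible, and the adjustment over 8 pairs alone ended the call. The cause of the other changes was not tested.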
